A study of Caenorhabditis elegans with 6 samples.

Results

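The flp and nlp genes of Caenorhabditis elegans encode precursors of neuropeptides, short signalling peptides released mostly by neurons. The genes were chosen by name alone: every gene whose symbol starts with flp- or nlp-, leaving out nlp-27 to nlp-34, 8 genes known mainly for antimicrobial peptides of the skin. A probe was matched for 81 of the 101 annotated genes (26 of 31 flp genes and 55 of 70 nlp genes), out of 17922 genes measured. The other 20, among them flp-1, flp-16, flp-25, flp-28 and flp-33, were not analysed here.

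A neuropeptide precursor is cut at basic residues by a proprotein convertase, trimmed by a carboxypeptidase, often amidated at its end, and packed into dense core vesicles. On release it acts mostly on G protein coupled receptors, within and beyond synapses. The FMRFamide-like peptides (flp) share a short amidated ending, while the neuropeptide-like proteins (nlp) are a mixed class that holds the other families. In this worm both are known for setting locomotion, egg laying, feeding and sleep-like quiescence, and many work beside acetylcholine, the transmitter whose breakdown organophosphorus insecticides block.

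Whole worms of the wild type strain N2 were raised from eggs on agar that held diazinon (DZN), an organophosphorus insecticide, in acetone, and were compared with control worms raised on agar with acetone only. Collection was after 72 h at 16 °C, at the L3 stage by the treatment protocol and at L3 or L4 by the sample labels. The dose is likewise unsettled, since it is 1 mg/ml in the names of the samples, 0.5 mg/ml in the protocol of the treatment, and is stated per litre in the study's methods. Each of 6 arrays of 60-mer oligonucleotides carried 1 DZN and 1 control extract. DZN was labelled with Cy5 on 3 arrays (DZN-Cy5 replicates 1 to 3) and with Cy3 on the 3 others (DZN-Cy3 replicates 1 to 3). The series design gives the 6 arrays as biological replicates. All values below are log2 ratios of DZN over control or normalized log2 intensities, and each gene stands for its brightest probe. In whole worms, fewer cells of a type and less RNA per cell cannot be told apart.

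The 3 DZN-Cy3 arrays had brighter spots than the 3 DZN-Cy5 arrays (median spot intensities of 482 to 1393 against 188 to 361), so the orientation of the dyes and the brightness of the spots cannot be told apart. The scanner's photomultiplier settings differed between orientations for Cy3 in replicates 1 and 2 (55 on the DZN-Cy3 and 50 on the DZN-Cy5 arrays) and were the same for both arrays numbered 3. Between 60.2% and 74.7% of worm probes lay above background in the DZN channels and between 49.7% and 81.4% in the control channels. Over all probes the ratios of any pair of arrays correlated between -0.24 and 0.57. The linear model of limma, tested across all probes with Benjamini-Hochberg adjustment, called 4 probes at an adjusted p under 0.05. Rank products combine the ranks of a probe over all arrays, so extreme ranks on some arrays can carry a call. They called 118 probes higher and 148 lower in DZN at an expected share of false positives (PFP) under 0.05. On simulated ratios whose variances differed between probes, rank products also called unchanged probes. No counts from that simulation are given, so it sets no error rate for these calls.

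Most neuropeptide genes were well measured. On each array between 71 and 74 of the 81 genes lay above background in the DZN channel and between 65 and 74 in the control channel. By the detection rule used here, above background in at least 3 of the 6 channels of 1 treatment, 74 genes were detected (25 flp and 49 nlp). The genes flp-32, nlp-13, nlp-20, nlp-22 and nlp-90 lay above background in no channel. No gene was seen in 1 treatment and never in the other, so no ratio below is only a bound. The spots of nlp-24 had more than 50% of their pixels saturated in 3 channels, so its ratios may be compressed.

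The medians of both families lay near 0 in DZN treated worms. The median log2 ratio was 0.055 over the 26 flp genes and 0.054 over the 55 nlp genes, against -0.008 over all genes. The flp ratios ran from -0.30 (flp-8) to 0.42 (flp-27), and the nlp ratios from -1.04 (nlp-4) to 0.77 (nlp-81). The SD over members was 0.187 for flp and 0.291 for nlp. The difference of the medians, flp minus nlp, was 0.00 in the fit and between -0.19 and 0.13 on single arrays.

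Of the 81 genes, 52 had a ratio above 0 (18 of 26 flp, 34 of 55 nlp), which is 64.2%, where 48.4% of all genes had one. This share rested on small ratios. Past 0.5 in size lay only nlp-81 above 0 (1.56% of all genes were that high) and nlp-4, nlp-25 and nlp-35 below 0 (4.44% of all genes were that low). Limma called none of the 81 genes at an adjusted p under 0.05, against 0.0167% of all genes. At an unadjusted p under 0.05, 1 neuropeptide gene was higher (nlp-8, against 3.3% of all genes) and 4 were lower (nlp-4, nlp-25, nlp-47 and nlp-60, against 8.51% of all genes). Rank products called nlp-81 higher (0.636% of all genes were called so) and nlp-4 lower (0.764% of all genes). The normalized levels of DZN and control overlapped for all 81 genes, and did not overlap for 0.112% of all genes.

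**Figure D1:**
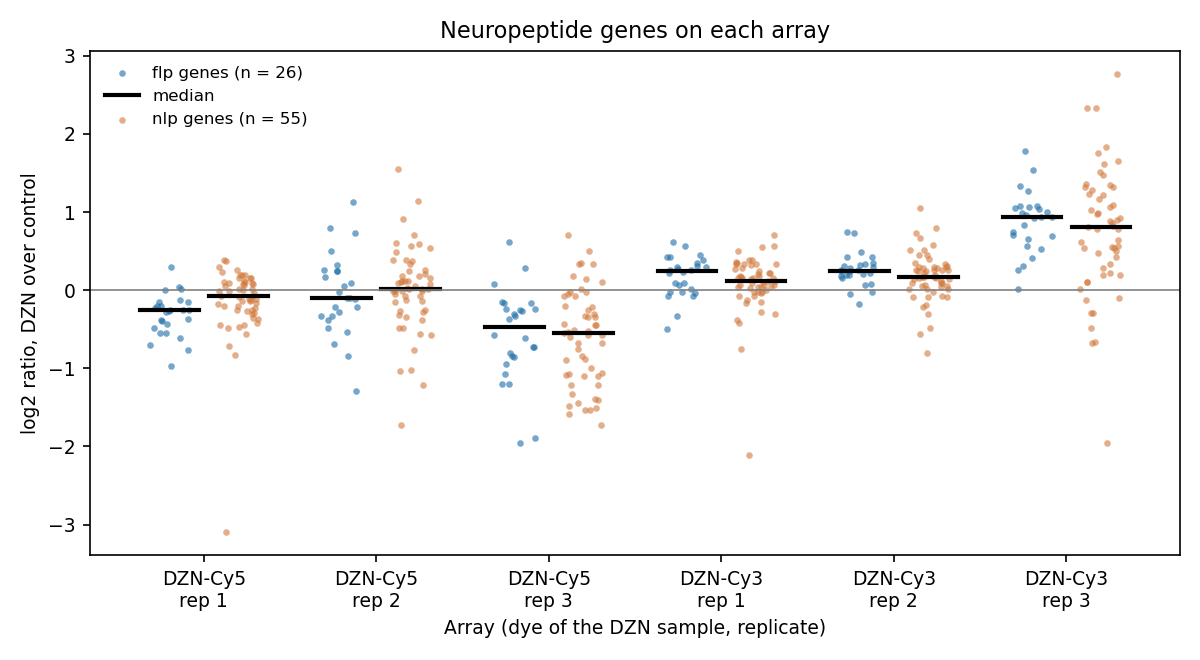
Log2 ratio of DZN over control (vertical axis) of 26 flp genes (blue) and 55 nlp genes (orange) on each of 6 arrays (horizontal axis), normalized by loess, 1 point per gene with the median as a black bar. The flp medians lie between -0.47 and -0.10 on the DZN-Cy5 arrays and between 0.25 and 0.93 on the DZN-Cy3 arrays.

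Ratios differed more between arrays than between the families. The flp medians were -0.26, -0.10 and -0.47 on the DZN-Cy5 arrays (replicates 1 to 3, in that order here and below) and 0.25, 0.25 and 0.93 on the DZN-Cy3 arrays. The nlp medians were -0.07, 0.01 and -0.55 on the DZN-Cy5 arrays and 0.12, 0.17 and 0.81 on the DZN-Cy3 arrays. The flp medians were thus below 0 on every DZN-Cy5 array and above 0 on every DZN-Cy3 array, with no overlap. On DZN-Cy3 replicate 3 all 26 flp genes had a ratio above 0, and on DZN-Cy5 replicate 3 only 3 did. The median over all genes stayed between -0.04 and 0 on each array.

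Gene by gene, the mean over DZN-Cy5 arrays was below the mean over DZN-Cy3 arrays for 26 of 26 flp genes and 50 of 55 nlp genes, against 53.3% of all genes. The median of this difference was -0.78 for flp and -0.67 for nlp genes, against -0.03 over all genes. The dye term of the fit had an unadjusted p under 0.05, with DZN-Cy5 lower, for 15 flp genes (57.7%) and 10 nlp genes (18.2%), against 5.19% of all genes. It did so with DZN-Cy3 lower for none of the 81, against 6.96% of all genes. In either direction the dye term had such a p for 25 of the 81 genes, against 12.1% of all genes, and after adjustment no gene passed on it. Below 0 on all 3 DZN-Cy5 arrays and above 0 on all 3 DZN-Cy3 arrays were 8 flp and 9 nlp genes, against 3.38% of all genes. The opposite split was found in none of the 81, against 3.35% of all genes. The flp counts include flp-32, which lay above background in no channel. Of the 25 detected flp genes, 14 (56%) had a dye term p under 0.05 with DZN-Cy5 lower. The first split was found in 7 of these 25 (28%). The difference between the families in these shares was not tested. The split of the medians by orientation was present after loess and was not seen after a simpler centring. With each array centred on its median in place of loess, the flp medians were 0.19, 0.78 and -0.42 on the DZN-Cy5 arrays. They were 0.16, 0.06 and 0.19 on the DZN-Cy3 arrays. The median difference between orientations was then 0.05 for flp and 0.02 for nlp genes, against 0.22 over all genes. Both medians thus lay below the value over all genes. Gene by gene, the DZN-Cy5 mean was then the lower one for 9 of 26 flp genes (34.6%) and 27 of 55 nlp genes (49.1%). The share over all genes was 41.8%. Under that centring the dye term had an unadjusted p under 0.05 with DZN-Cy5 lower for 1 flp and 6 nlp genes (8.64% of the 81, against 17.8% of all genes) and with DZN-Cy3 lower for 0 flp and 8 nlp genes (9.88% of the 81, against 20.2% of all genes). It left 74.1% of the 81 genes with a ratio above 0, against 57.7% of all genes.

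Markers of the germline moved with the arrays in the opposite direction under loess. The median of 10 germline and embryo markers was -0.09, 0.13 and 0.98 on the DZN-Cy5 arrays and -0.61, -0.32 and -0.01 on the DZN-Cy3 arrays. That of 10 sperm markers was -0.22, 0.01 and 0.69 on the DZN-Cy5 arrays and -1.21, -1.06 and -0.17 on the DZN-Cy3 arrays. The array with the highest germline and sperm medians, DZN-Cy5 replicate 3, was the one with the lowest neuropeptide medians. At the other end the order did not mirror this, since the neuropeptide medians were highest on DZN-Cy3 replicate 3 and the germline and sperm medians were lowest on DZN-Cy3 replicate 1. Summed over the list, the germline markers had a linear level of 47730 to 72500 in DZN and 47540 to 68840 in control channels, and the sperm markers 21370 to 64750 in DZN and 28040 to 60820 in control channels. Only spe-38 of these markers was never above background. The part of germline RNA in the neuropeptide ratios was not tested.

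The neuron marker list had a smaller median difference between orientations than the neuropeptide genes. It holds general neuronal genes and genes of single transmitter classes (unc-25, unc-47, eat-4, cat-2 and tph-1). Its median difference between orientations was -0.20, and its median was 0.07, 0.01 and -0.33 on the DZN-Cy5 arrays and 0.19, 0.10 and 0.12 on the DZN-Cy3 arrays (16 of 18 markers matched, none of them never above background). In the fit it was 0.056, close to both families, and no neuron marker was called by limma, with 0 higher (3.3% of all genes) and 2 lower (8.51% of all genes) at an unadjusted p under 0.05. The summed linear level was 29540 to 41930 in DZN and 32810 to 41950 in control channels. The DZN-Cy5 mean was below the DZN-Cy3 mean for 10 of 16 markers (62.5%, against 90.9% of nlp and 53.3% of all genes). The dye term had an unadjusted p under 0.05, with DZN-Cy5 lower, for 3 markers (18.8%, against 18.2% of nlp and 5.19% of all genes). Below 0 on all DZN-Cy5 and above 0 on all DZN-Cy3 arrays were 3 markers (18.8%, against 16.4% of nlp and 3.38% of all genes). The flp shares were higher, at 100%, 57.7% and 30.8%.

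**Figure D2:**
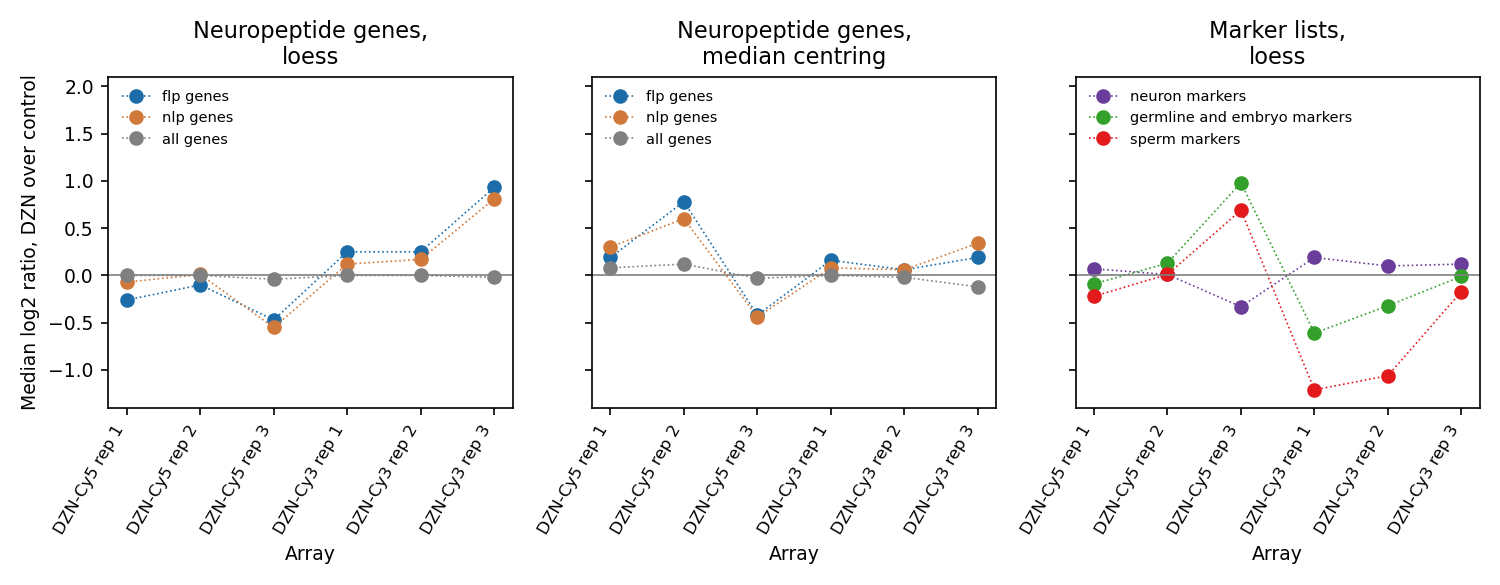
Median log2 ratio of DZN over control (vertical axis) on each of 6 arrays (horizontal axis) of flp, nlp and all genes after loess (left), of the same genes after median centring (middle), and of 16 neuron, 10 germline and embryo and 10 sperm markers after loess (right). The flp and nlp medians split by dye orientation after loess (flp -0.47 to -0.10 against 0.25 to 0.93) and do not after median centring.

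The gene with the steadiest difference was nlp-25, the only neuropeptide gene with 1 sign on all 6 arrays (3.51% of all genes were below 0 and 2.07% above 0 on all arrays). It belongs with nlp-24 and the genes nlp-27 to nlp-34 to the precursors of glycine and tyrosine rich peptides. Its ratio was -0.56, -0.76 and -0.88 on the DZN-Cy5 arrays and -0.31, -0.49 and -0.66 on the DZN-Cy3 arrays. All 6 arrays gave a lower level in DZN than in control, and the orientations overlapped. Normalized levels averaged 13.17 ± 0.44 in DZN and 13.78 ± 0.38 in control (SD, n = 6 each), and they overlapped between the groups because the arrays differed from each other by as much. The fitted log2 ratio was -0.61 ± 0.10 (SE), 1.53-fold lower in DZN, with a 95% interval of -0.85 to -0.37 (adjusted p = 0.127 by limma with Benjamini-Hochberg adjustment over all probes). It thus did not pass the threshold over all probes, and its rank product PFP was 0.17.

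The neighbouring gene nlp-26 did not share this pattern. Its fitted ratio was 0.05 ± 0.11 (SE), above 0 on 4 of 6 arrays. The gene nlp-24, of the same peptide class and known in worms as an opioid-like peptide of starvation feeding, had -0.30, -0.48 and -1.06 on the DZN-Cy5 arrays and 0.50, 0.05 and -0.29 on the DZN-Cy3 arrays. It was below 0 on 4 of 6 arrays and gave -0.26 ± 0.15 (SE, adjusted p = 0.551 by limma).

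The lowest ratio belonged to nlp-4, a precursor with no role named here. It was -0.37, -1.73 and 0.50 on the DZN-Cy5 arrays and -2.11, -0.56 and -1.95 on the DZN-Cy3 arrays. DZN was lower on 5 of 6 arrays, and DZN-Cy5 replicate 3 went the other way. Levels were 11.69 ± 0.99 in DZN and 12.73 ± 0.48 in control (SD, n = 6 each), with a wider spread in DZN that reached into the control range. The fit gave -1.04 ± 0.31 (SE), 2.05-fold lower in DZN, with a 95% interval of -1.76 to -0.32 (adjusted p = 0.332 by limma). Rank products called it lower (PFP 0.00889). This call was lost without DZN-Cy5 replicate 2, DZN-Cy3 replicate 1 or DZN-Cy3 replicate 3, each left out alone. Unlike most members, its mean ratio was higher on the DZN-Cy5 than on the DZN-Cy3 arrays (-0.53 against -1.54).

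At the other end stood nlp-81, whose role is also not named here. Its ratio was 0.29, 1.55 and -1.21 on the DZN-Cy5 arrays and 0.15, 1.05 and 2.77 on the DZN-Cy3 arrays. The range from -1.21 to 2.77 was the widest of the detected neuropeptide genes. Levels were 10.50 ± 0.91 in DZN and 9.73 ± 0.52 in control (SD, n = 6 each) and overlapped. The fit gave 0.77 ± 0.41 (SE), 1.7-fold higher in DZN, with a 95% interval of -0.19 to 1.73 (adjusted p = 0.54 by limma), while rank products called it higher (PFP 0.0401). With 1 array left out the ratio ran between 0.41 (without DZN-Cy3 replicate 3) and 1.12 (without DZN-Cy5 replicate 3), and it was 0.43 without DZN-Cy5 replicate 2. The rank product call was lost without DZN-Cy5 replicate 1, DZN-Cy5 replicate 2, DZN-Cy3 replicate 2 or DZN-Cy3 replicate 3, each left out alone.

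**Figure D3:**
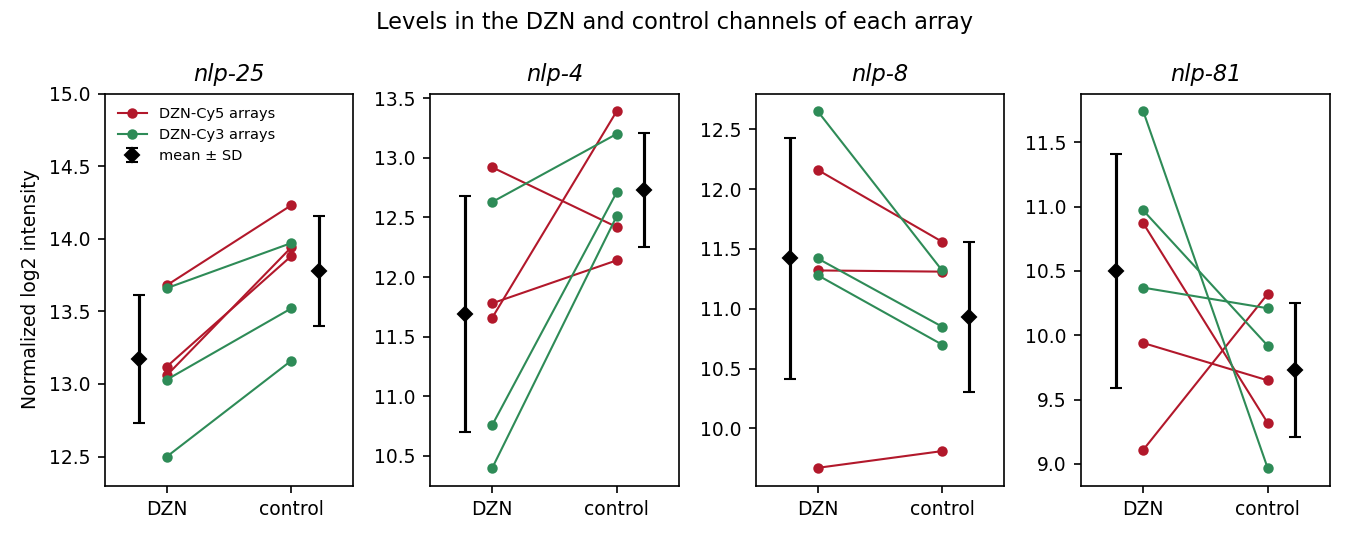
Normalized log2 intensity (vertical axis, a separate range per gene) of nlp-25, nlp-4, nlp-8 and nlp-81 in the DZN channel (left) and the control channel (right) of each array, joined by a line per array, with the mean ± SD of 6 channels as black diamonds. All 6 lines run lower in DZN for nlp-25, and 5 of 6 do for nlp-4.

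The other genes at an unadjusted p under 0.05 were nlp-47, nlp-60 and nlp-8. The precursor nlp-47 encodes the worm's gonadotropin releasing hormone-like peptide. It had -0.29, -1.02 and -1.58 on the DZN-Cy5 arrays and -0.03, 0.12 and 0.20 on the DZN-Cy3 arrays, so only DZN-Cy5 arrays were far below 0. Its fitted ratio was -0.43 ± 0.16 (SE, adjusted p = 0.414 by limma), and -0.28 without DZN-Cy5 replicate 3. The dim gene nlp-60, above background in 3 of 6 channels of each treatment, had 0.37, -0.38 and -0.20 on the DZN-Cy5 arrays and -0.38, -0.80 and -0.49 on the DZN-Cy3 arrays. Its fitted ratio was -0.31 ± 0.13 (SE, adjusted p = 0.447 by limma), and it moved with the background step, to -0.54 with plain subtraction and -0.14 with the mean local background.

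The ratio of -0.59 for nlp-35 rested on 1 array. It was -3.10 on DZN-Cy5 replicate 1 and between -0.33 and 0.06 on the 5 other arrays. On that array nlp-35 lay above background in both channels, at 9.89 in DZN and 12.99 in control, and in no channel of any other array. It failed the detection rule and is not counted among the detected genes.

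The 5 detected quiescence peptides had ratios above 0, as did nlp-22, which was never above background, and the median over all 6 was 0.237. A ratio above 0 was found for 64.2% of the 81 neuropeptide genes and 48.4% of all genes. Quiescence peptides are peptides known to promote sleep-like states, such as those of the ALA and RIS neurons. The ALA peptide nlp-8 had -0.14, 0.59 and 0.01 on the DZN-Cy5 arrays and 0.57, 0.58 and 1.32 on the DZN-Cy3 arrays. It was above 0 on 5 of 6 arrays. Levels were 11.42 ± 1.01 in DZN and 10.93 ± 0.63 in control (SD, n = 6 each) and overlapped. Its fitted ratio was 0.49 ± 0.15 (SE), 1.4-fold higher in DZN, with a 95% interval of 0.14 to 0.84 (adjusted p = 0.342 by limma). The other ALA peptides, flp-13 (0.29 ± 0.21) and flp-24 (0.14 ± 0.12), the RIS peptide flp-11 (0.04 ± 0.15) and nlp-14 (0.33 ± 0.22) were above 0 by less than 2 SE each. Without both arrays numbered 3, an alternative chosen after seeing the data, flp-11 had -0.11 and flp-24 had 0.00. The ratio of nlp-22 was 0.19 ± 0.12 and followed the background step, with 0.02 under no correction and 0.64 under plain subtraction. The peptide flp-13 had -0.97 on DZN-Cy5 replicate 1 and 0.24 to 0.93 on the 5 other arrays, and flp-24 was below 0 on all 3 DZN-Cy5 arrays and above 0 on all 3 DZN-Cy3 arrays. The 3 probes of flp-11 gave 0.04, 0.31 and 0.00, and none had an unadjusted p under 0.05.

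Peptides of locomotion and egg laying had a median of 0.086 over 7 measured genes, 6 of them above 0 (48.4% of all genes were). None passed an unadjusted p of 0.05, against 3.3% of all genes higher and 8.51% lower. The gene nlp-12, a cholecystokinin-like peptide of the DVA neuron that acts on motor neuron transmission, varied widely. Its ratio was 0.16, 1.14 and -1.33 on the DZN-Cy5 arrays and -0.03, 0.52 and 1.61 on the DZN-Cy3 arrays, which gave 0.35 ± 0.33 (SE). The inhibitors of egg laying flp-10 and flp-17, which act through the receptor EGL-6, had 0.09 ± 0.18 and 0.09 ± 0.10. The flp-17 interval, -0.16 to 0.33, was among the narrowest. The Y-receptor ligand flp-18 had 0.06 ± 0.17 and flp-20, a peptide of touch neurons, had 0.09 ± 0.19. The egg laying peptides nlp-3 and nlp-7 had -0.18 ± 0.19 and 0.01 ± 0.17. For nlp-3 the orientations lay far apart, with -0.20, -1.03 and -1.51 on the DZN-Cy5 arrays and 0.14, 0.40 and 1.09 on the DZN-Cy3 arrays.

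Peptides of feeding, foraging and fat had a median of 0.046 over 6 genes, 3 above 0 (48.4% of all genes were) and 3 below. The NPR-1 ligand flp-21 had 0.17 ± 0.13 (SE), nlp-1, a peptide of the AWC olfactory neuron, had 0.27 ± 0.24, and flp-34, a neuropeptide Y-like precursor, had 0.11 ± 0.10. The tachykinin-like flp-7, which drives fat loss, had -0.03 ± 0.13, and nlp-40, an intestinal peptide that times defecation, had -0.01 ± 0.12. With nlp-24 these genes gave no unadjusted p under 0.05, against 3.3% of all genes higher and 8.51% lower. The values of flp-7 and nlp-40 lay so near 0 that their sign depended on the setting.

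Among the other flp genes the largest ratios were those of flp-27 (0.42 ± 0.21), flp-2 (0.39 ± 0.17), flp-4 (0.30 ± 0.17) and flp-3 (0.29 ± 0.32), and the smallest those of flp-8 (-0.30 ± 0.14), flp-12 (-0.28 ± 0.23), flp-14 (-0.20 ± 0.15), flp-22 (-0.12 ± 0.15) and flp-9 (-0.10 ± 0.28). None had an unadjusted p under 0.05, and flp-2 (adjusted p = 0.472 by limma) came closest to it. The ratio of flp-8 was below 0 on 5 of 6 arrays, and both of its probes gave a negative value (-0.30 and -0.50). The 3 probes of flp-2 gave 0.39, 0.36 and 0.05, the last from a dimmer probe. Of the other nlp genes, nlp-61 (0.48 ± 0.21) and nlp-23 (0.34 ± 0.22) were above 0 on 5 of 6 arrays. The value of nlp-61 leaned on DZN-Cy3 replicate 3, where it was 1.83 against -0.03 to 0.37 on the 5 others, and it was 0.22 without that array.

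**Figure D4:**
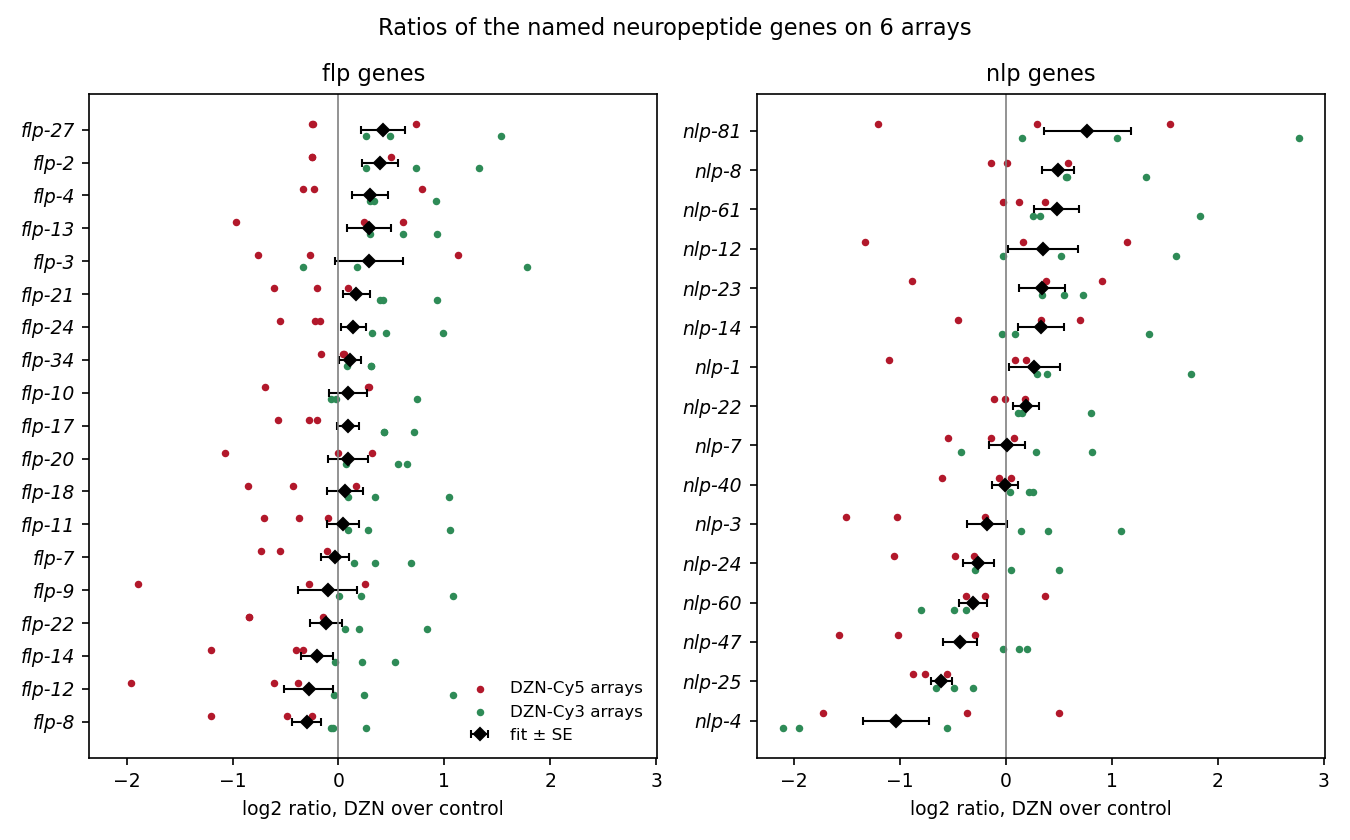
Log2 ratio of DZN over control (horizontal axis) of 19 flp genes (left) and 16 nlp genes (right) on 3 DZN-Cy5 arrays (red) and 3 DZN-Cy3 arrays (green), with the fitted value ± SE as black diamonds. The nlp-25 points all lie below 0, and for most flp genes the red points lie left of the green points.

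The precision differed between genes. The SE ran from 0.09 to 0.41 with a median of 0.17. The unadjusted 95% interval lay wholly within 1 of 0 for 75 of the 81 genes (25 of 26 flp, 50 of 55 nlp), a bound of 2-fold, and wholly within 0.5 of 0 for 35 of them. For those genes a mean change beyond that size lay outside the interval, while smaller changes were not excluded. The intervals of nlp-25 (-0.85 to -0.37), nlp-8 (0.14 to 0.84), nlp-47 (-0.82 to -0.05) and nlp-60 (-0.62 to -0.01) lay within 1 of 0 and left out 0. Limma called none of the 81 genes after adjustment.

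The enzymes that process precursors gave a mixed result. Of 10 genes, 7 were above 0 (48.4% of all genes were) and the median was 0.115. The carboxypeptidases egl-21 (0.39 ± 0.15 SE, above 0 on 5 of 6 arrays) and cpd-2 (0.37 ± 0.14, above 0 on 6 of 6 arrays) had an unadjusted p under 0.05 on the higher side, as did 3.3% of all genes. The amidating enzyme pamn-1 (-0.33 ± 0.14) and the convertase bli-4 (-0.65 ± 0.26), which is known best for the cuticle, did on the lower side, as did 8.51% of all genes. For bli-4 the ratio was -2.48 on DZN-Cy5 replicate 1 and -0.54 to -0.11 on the 5 others, and the fit gave -0.31 without that array and -0.10 with the mean over its probes. The convertase egl-3, which cuts most neuropeptide precursors, had a fitted ratio of 0.12 ± 0.16 (SE, adjusted p = 0.819 by limma), above 0 although 4 of 6 arrays were below 0. None of the 10 was called by limma or rank products. The dye split seen in the flp and nlp precursors was weaker here, with a median difference between orientations of -0.08.

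None of 10 genes for dense core vesicle release had an unadjusted p under 0.05, against 3.3% of all genes higher and 8.51% lower. Their median was 0.115, with 8 above 0 (48.4% of all genes were). The range ran from hid-1 (-0.21 ± 0.14 SE), a vesicle maturation gene, to egl-30 (0.21 ± 0.12), the Gq alpha subunit that drives release at neuromuscular synapses.

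The neuropeptide receptors had a median of 0.030 over 97 measured genes of 100 listed, 74 of them detected. Above 0 were 58 of the 97 (59.8%, against 48.4% of all genes). At an unadjusted p under 0.05, 5 were higher (npr-5, npr-36, dmsr-12, dmsr-13 and gnrr-1, the last 3 failing the detection rule) and 2 were lower (frpr-6 and trhr-1), against 3.3% of all genes higher and 8.51% lower, and none was called by limma or rank products. The receptor trhr-1, for thyrotropin releasing hormone-like peptides, was below 0 on 6 of 6 arrays (-0.43 ± 0.13 SE). So was frpr-6, of the FMRFamide peptide receptor family (-0.45 ± 0.11), which lay above background in 2 DZN and 3 control channels and moved with the background step, to -1.01 with plain subtraction and -0.17 with the mean local background. The highest detected receptor, npr-38 (0.39 ± 0.20), had 1.55 on DZN-Cy3 replicate 1 and -0.22 to 0.31 on the others, and it was 0.16 without that array. Between orientations the median difference of the receptors was -0.23, with DZN-Cy5 lower for 76 of 97 (78.4%, against 53.3% of all genes). The dye term had an unadjusted p under 0.05, with DZN-Cy5 lower, for 14 (14.4%, against 5.19% of all genes). It was widest apart for dmsr-7, with means of -1.82 on DZN-Cy5 and 2.03 on DZN-Cy3 arrays (dye term adjusted p = 0.176 by limma).

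Among the peptide precursors outside the flp and nlp names, lury-1 differed most. It encodes the luqin-like peptides, known to act in feeding and egg laying. Its ratio was -0.19, -1.71 and -0.48 on the DZN-Cy5 arrays and -0.88, -1.48 and -2.27 on the DZN-Cy3 arrays. All 6 arrays gave a lower level in DZN than in control. Levels averaged 8.30 ± 0.61 in DZN and 9.47 ± 0.84 in control (SD, n = 6 each). The fit gave -1.17 ± 0.24 (SE, adjusted p = 0.189 by limma), and rank products called it lower (PFP 0.00756). That call was lost without DZN-Cy3 replicate 2 (PFP 0.0533), without DZN-Cy3 replicate 3 (PFP 0.0825), without both arrays numbered 3 (PFP 0.0685) and with plain background subtraction (PFP 0.252, ratio -1.38). The other 5 measured precursors of this list had smaller ratios, and their highest was the neuromedin U-like capa-1 (0.39 ± 0.26). The olfactory plasticity peptide snet-1 had -1.18, -0.89 and -1.10 on the DZN-Cy5 arrays and 0.19, 0.37 and 0.69 on the DZN-Cy3 arrays. Its dye term had a smaller p than that of any flp or nlp gene (adjusted p = 0.211 by limma), so its fitted ratio of -0.32 ± 0.11 averages values of opposite sign. The dye split was thus not limited to the flp and nlp names. Over the 6 measured precursors of this list the median difference between orientations was -0.84, against -0.78 for flp and -0.67 for nlp genes. The dye term had an unadjusted p under 0.05, with DZN-Cy5 lower, for pdf-1, pdf-2 and snet-1 (3 of 6, against 5.19% of all genes).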

How the data were processed

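Per the file headers, the 6 deposited scanner files give the intensity of each spot on a linear scale without normalization, its local background, and the percent of its pixels that were saturated. A deposited table of log2 ratios, read as DZN over control, matched loess on the foreground with no background step, with a slope of 0.999 to 1.001 per array and a correlation that rounds to 1. The authors named limma for loess and Aquantile, with no version and no background step. Of 23232 spots per array, 22490 were worm probes, of which 21413 matched 17922 genes through RefSeq (21383 by sequence name, 30 by the platform table). RefSeq served for names only. A table of peptide sequences was not used here, so the planned count of sequence features was not run.

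Spot means were corrected with normexp (offset 50) on the median local background and normalized by loess (control spots at weight 0) and Aquantile (limma 3.58.1, R 4.3.3). The mean local background was tried first. The median, the default of limma for this scanner, replaced it after a first result had been seen. Ratios of DZN over control were fitted per probe (lmFit, eBayes) on an intercept and dye orientation (4 residual and 3.56 prior degrees of freedom), and p-values were adjusted over all worm probes (threshold 0.05, two-sided). A one-class rank product test, the test of the study, was written from its definition (100 permutations, PFP under 0.05). On simulated ratios rank products also called unchanged probes where variances differed between probes. No counts from that simulation are given here, so it sets no error rate for the calls above. A channel was above background where the spot mean exceeded the mean local background by 2 SD. Named genes were those called, the 5 highest and 5 lowest detected genes per family, and members of 3 role lists. In the pathway lists they were the called, the highest and the lowest detected genes. The genes cpd-2, pamn-1, egl-3, trhr-1, snet-1, nlp-26, nlp-35 and the receptors at an unadjusted p under 0.05 were named after their values were seen. The family, role, pathway and marker lists were chosen with earlier results of these data known, so no test of a list was run. The depth of arrays is limited by their number. Alternatives covered background, normalization, dye term, replicate number, filters, probe summary, the deposited log2 table and each array left out.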

Additional observations from a re-analysis of the deposited data

Results flagged for a closer look

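In 8 of 43 screened genes 1 array stood apart from the other 5 by more than Dixon's criterion allows. Among the neuropeptide genes these were flp-13 with -0.97 on DZN-Cy5 replicate 1, nlp-23 with -0.89 and flp-20 with -1.07 on DZN-Cy5 replicate 3, nlp-61 with 1.83 on DZN-Cy3 replicate 3 and nlp-22 with 0.80 on DZN-Cy3 replicate 2. In the pathway lists they were bli-4 with -2.48 on DZN-Cy5 replicate 1, hid-1 with -0.88 on DZN-Cy5 replicate 2 and npr-38 with 1.55 on DZN-Cy3 replicate 1. Chance alone marks about 1 in 20 such groups, and 43 genes were examined. Many of the 43 were chosen for high or low ratios, and the share over all genes is not given here. The gene nlp-35, with -3.10 on DZN-Cy5 replicate 1 and -0.33 to 0.06 on the others, was not among those screened.

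The median log2 ratio of the flp genes had opposite signs in the dye orientations, with a mean of -0.28 over the DZN-Cy5 arrays and 0.48 over the DZN-Cy3 arrays. This difference of medians was not tested, and it was absent with median centring in place of loess.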

How the results depend on the processing

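Limma called 0 neuropeptide genes under each of 19 alternatives. At an unadjusted p under 0.05 the reported setting gave 1 higher and 4 lower. The mean local background and leaving out both arrays numbered 3 were chosen after seeing the data. The family medians, reported as 0.055 for flp and 0.054 for nlp genes, changed in size and in sign between settings. They were 0.14 for flp and 0.15 for nlp genes with median centring, and -0.03 for both without DZN-Cy3 replicate 3. The median difference between orientations was 0.05 for flp and 0.02 for nlp with median centring, against 0.22 over all genes. It was -0.46 for flp and -0.16 for nlp without both arrays numbered 3. With each array left out in turn it stayed between -0.97 and -0.58 for flp and between -0.79 and -0.36 for nlp genes. The cause was not tested.

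Rank products called 0 genes in each direction with plain subtraction or median centring, and 0 higher with same-numbered arrays averaged, with dim probes left out or without both arrays numbered 3. With each array left out in turn the calls ranged between 0 and 1 in each direction, as given for nlp-81 and nlp-4. At an unadjusted p under 0.05 the higher count was 2 with no background correction, the deposited log2 table or the mean local background, 4 with median centring or without both arrays numbered 3, and 6 with same-numbered arrays averaged. The lower count was 2 with plain subtraction, median centring, no dye term or without both arrays numbered 3. With each array left out in turn the counts ranged between 1 and 7 higher and between 2 and 5 lower. The higher count was 7 without DZN-Cy5 replicate 3, 5 without DZN-Cy3 replicate 1, and 2 when either DZN-Cy3 replicate 2 or DZN-Cy5 replicate 1 was dropped. The lower count was 2 when DZN-Cy5 replicate 3, DZN-Cy3 replicate 1 or DZN-Cy3 replicate 2 was dropped. The genes nlp-25 and nlp-4 stayed among the lower ones, and nlp-8 among the higher ones, in all of these alternatives.

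Of 816 gene values under the alternatives, 28 changed sign, each uncalled in both settings, and 32 of 43 genes kept 1 sign throughout. The adjusted p of nlp-25 ranged between 0.0716 and 0.689. With all arrays, nlp-40 had 0.00 (plain subtraction) and 0.11 (median centring), flp-7 0.09 (median centring), egl-30 -0.02 (mean over probes) and nlp-7 -0.02 (mean local background). Without both arrays numbered 3, flp-9 had 0.05, flp-11 -0.11, flp-24 0.00, flp-10 -0.12, nlp-7 -0.05 and nlp-40 0.07. With each array left out in turn the ranges were -0.33 to 0.21 for flp-9, -0.10 to 0.14 for flp-11, -0.08 to 0.18 for flp-18, -0.05 to 0.29 for flp-20, -0.13 to 0.17 for nlp-7, -0.12 to 0.03 for flp-7, -0.08 to 0.08 for nlp-40, -0.02 to 0.51 for flp-3 and -0.04 to 0.25 for flp-10.

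Replicate numbers are shared between the orientations, but same-numbered arrays correlated at 0.15, -0.01 and -0.08 in their deviations, and no array matched its own number best, so the numbers were not taken as pairs. With the replicate block limma called 0 genes, with 1 higher and 5 lower at an unadjusted p under 0.05. With 6 arrays and a median SE of 0.17, changes of several SE can go uncalled after adjustment. For nlp-25 the ratio was -0.61 ± 0.10 (SE), and it did not pass (adjusted p = 0.127 by limma). The offset pulls the ratios of dim genes towards 0.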
